A study of Mus musculus with 11 samples.

Results

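The canonical histone genes of the mouse lie in 4 clusters, and 67 of the 54232 genes in the deposited count table belong to them. They were taken as every protein-coding row whose symbol starts with Hist1h, Hist2h, Hist3h or Hist4h. Of the 70 rows with such symbols, 3 are pseudogenes and are not members. The members encode 6 linker histones of class H1, 18 H2A, 18 H2B, 12 H3 and 13 H4 histones. By the positions in the table (build mm10), cluster 1 on chromosome 13 (21715763 to 23934851) holds 54 of them, cluster 2 on chromosome 3 (96219865 to 96270132) holds 10, cluster 3 on chromosome 11 holds 2 and cluster 4 on chromosome 6 holds 1.

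The study compared the ovaries of wild-type mice at 3 ages by bulk RNA-seq, with 4 libraries labelled 2 month, 4 labelled 18 month and 3 labelled 24 month. The names of the 2 month libraries give 8 weeks and those of the 24 month libraries give 22 months. All groups shared the genotype (WT) and the tissue, and no strain, treatment or selected cell type is named. The 18 month replicates 3 and 4 differed by little more than sampling noise (chi-square per gene 1.10, against 28.7 or more for every other pair of the same age), were added up and were counted as 1 sample, which left 10 samples (4, 3 and 3). Nothing in the labels says that replicates came from separate animals, so p-values measure the spread between these samples.

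Histones are the proteins around which DNA is wound. A pair each of H2A, H2B, H3 and H4 forms the core of a nucleosome, and H1 binds the linker DNA between nucleosomes. Most cluster histone genes are copied into RNA mainly in S phase, when new DNA has to be packed. Their mRNAs usually lack introns and a poly(A) tail. They end instead just after a short stem-loop that is bound by the stem-loop binding protein SLBP, and they are degraded when replication stops. Some cluster genes also make longer, polyadenylated transcripts, which have been described in differentiated cells. In the ovary, dividing granulosa cells are a main site of S phase, and oocytes store histones and histone mRNA for the embryo. The libraries here were made with a stranded mRNA kit, which selects RNA by its poly(A) tail, so RNA without a tail is largely removed before it is counted.

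The stem-loop was looked for in the annotated transcripts (GENCODE M21, in which all 67 members have the table's coordinates) as the 16 letters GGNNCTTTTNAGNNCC on the transcript's strand. It was present in 44 members, between 21 and 58 bases after the stop codon (median 31.0), and in 0.167% of the 58797 protein-coding transcripts of the annotation. Members below were chosen because they were among the best counted of their class, and the last 3 because they held almost no counts. The 2 most abundant H2B genes have models without a match and are not shown. Each line runs from 7 bases before to 7 bases after the stem-loop, which is in capitals and whose mm10 position is given.
Hist1h1c (chr13:23739512-23739527, plus strand): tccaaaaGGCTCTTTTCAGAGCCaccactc
Hist3h2a (chr11:58955172-58955187, plus strand): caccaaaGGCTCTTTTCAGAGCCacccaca
Hist2h3c2 (chr3:96238485-96238500, minus strand): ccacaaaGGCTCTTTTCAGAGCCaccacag
Hist1h4i (chr13:22040966-22040981, minus strand): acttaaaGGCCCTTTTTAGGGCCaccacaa
Hist2h4 (chr3:96262939-96262954, minus strand): ccctaacGGCCCTTTTTAGGGCCaaccaca
Hist1h4h (chr13:23531458-23531473, plus strand): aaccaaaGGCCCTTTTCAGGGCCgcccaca
Hist1h2bb (chr13:23747203-23747218, plus strand): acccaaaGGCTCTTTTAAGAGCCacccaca
Hist1h3b (chr13:23752820-23752835, plus strand): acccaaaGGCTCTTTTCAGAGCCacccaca
Hist1h4f (chr13:23551291-23551306, minus strand): tctcaaaGGCCCTTTTCAGGGCCacccact
The 3 poorly counted genes carry the same element as the well counted ones. Over all libraries together, Hist1h2bb had 19 counts, Hist1h3b 10 and Hist1h4f 8, against 19785 for Hist1h1c. In all, 6 forms of the element occurred. The form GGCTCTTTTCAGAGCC stood in 26 members, none of them H4, and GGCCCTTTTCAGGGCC in 7, all of them H4. The form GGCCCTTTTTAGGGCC was found in Hist1h4i and Hist2h4 alone.

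Most of the well counted members have an annotated model that runs far beyond the stem-loop. The model of Hist1h1c goes on for 840 bases after it, that of Hist3h2a for 1643, that of Hist2h3c2 for 377, that of Hist1h4i for 330 and that of Hist2h4 for 1257. The models of Hist1h2bb, Hist1h3b and Hist1h4f stop 23, 51 and 33 bases after it. Hist1h4h, Hist1h4k and Hist1h2ba, with 427, 237 and 60 counts, also passed the count filter: the model of Hist1h4h stops 46 bases after its stem-loop, and the models of Hist1h4k and Hist1h2ba hold none. The lines below show the end of some of these models, with a poly(A) signal (AATAAA or ATTAAA, searched on the transcript's strand in the last 40 bases) in capitals, 10 bases before it and 14 after it.
Hist1h1c: gtatgcttctAATAAAaagcgtttagtttt
Hist2h2be: tattattattAATAAAgttaccgattagtt
Hist3h2a: gtatatgcccAATAAAataagagtacgtgt
Hist2h4: gtatacataaAATAAAatcttaaaaacaac
Hist1h4i: ttctgtttacATTAAAagtattctatgcta
Hist1h4h: acattttcttATTAAAagagcgaacatgtg
A signal of this kind was found in 17 of the 67 members, and in 48.7% of all protein-coding transcripts. The 17 held 41055 (76.5%) of the 53666 counts over members, a share of counts and not of genes. The 50 members without it held 12611 counts (23.5%), and 10 of them passed the count filter. Among these were Hist1h2bc (9522 counts) and Hist2h3c2 (925 counts).

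The members were split by the end of their model after their counts had been seen, so what follows is a description. In 28 members the model runs 151 to 4884 bases past the stem-loop, or has a long or spliced end without a match to it. In 21 members the model stops 3 to 74 bases after the stem-loop, and in 18 it stops within 100 bases of the stop codon without showing a stem-loop. The 28 genes with long models held 52586 counts (97.99%), the 21 that end at the stem-loop 626 (1.17%) and the 18 without a 3′ end 454 (0.846%). Longer models can collect more reads, so levels were also taken per kb of exon. The median was then 0.260 CPM per kb for the long models, 0.0530 for those ending at the stem-loop and 0.0636 for those without a 3′ end. CPM are counts relative to the library total, scaled by edgeR's trimmed mean of M values (TMM).

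**Figure D1:**
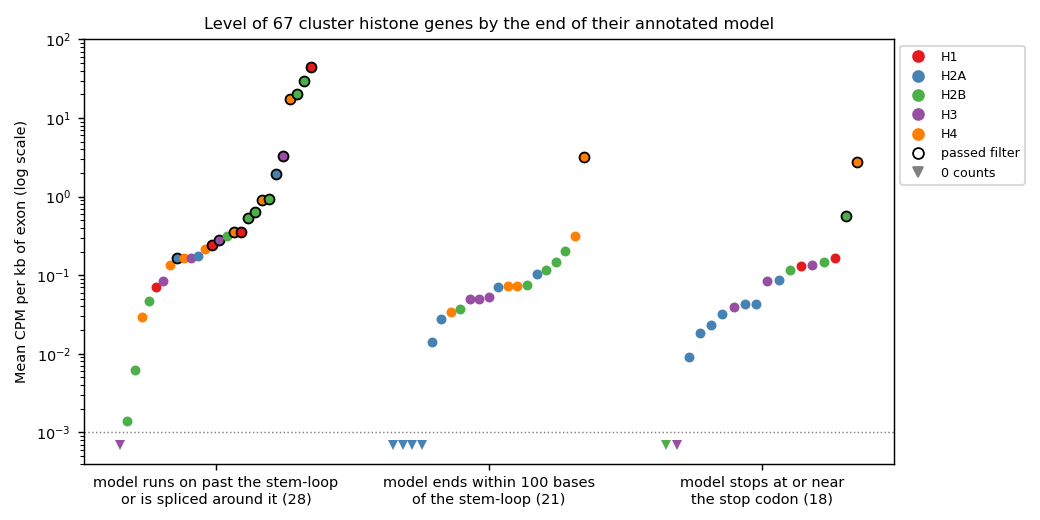
Each point is 1 of the 67 cluster histone genes, placed by the end of its annotated model (x axis) and its mean level over 10 samples in CPM per kb of exon (y axis, log scale), coloured by class, with a black ring for genes that passed the count filter and triangles for genes with 0 counts. Of the 4 genes above 10 CPM per kb, all have long models, and 15 of the 18 ringed genes do.

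At least 1 count was present for 60 of the 67 members (89.6%), close to the 87.0% of all 22055 protein-coding genes. Far fewer had usable counts. Only 21 had a count in every sample, 12 reached a mean of 1 CPM at any age, and 18 (26.9%) passed the filter on low counts, against 71.0% of protein-coding genes. The 18 were 3 of 6 H1, 2 of 18 H2A, 6 of 18 H2B, 2 of 12 H3 and 5 of 13 H4 genes. Together the members summed to 105.6 to 259.4 CPM of the unscaled library totals in a sample.

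A few genes carried almost all of this. Hist1h1c, a linker histone gene, held 36.9% of the members' counts, and the top 3 (Hist1h1c and the H2B genes Hist2h2be and Hist1h2bc) held 81.9%. With the H4 gene Hist1h4i the share was 88.5%, and the top 10 held 96.5%. By class, H2B took 47.8% and H1 38.3%, while H4 took 9.08%, H2A 2.62% and H3 2.14%. Per kb of exon the order was Hist1h1c at 44.2 CPM per kb, Hist1h2bc at 29.3, Hist2h2be at 20.1 and Hist1h4i at 17.4, and the next, Hist2h3c2, was at 3.34.

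Members that share sequence with other genes had fewer counts. When each member's transcripts were cut into 50-base words, 19 members had under 25% of words found in no other gene, and none of these passed the filter, with a median of 3 counts. Among the 18 members with over 75% of such words, 9 passed and the median was 73 counts. This split goes together with that by model end. The median share of such words was 73.1% for long models, 39.6% for those ending at the stem-loop and 24.4% for those without a 3′ end. The part of each in the counts was not tested. All 7 members without a single count were below 50%. They were the H2A genes Hist1h2ao, Hist1h2ap, Hist2h2aa1 and Hist2h2aa2, the H2B gene Hist2h2bb and the H3 genes Hist2h3b and Hist2h3c1. For Hist2h2aa2 and Hist2h3c1 the share of such words was 0%. Hist2h3c1 and Hist2h2aa1 overlap Gm20634 on the same strand, and Hist2h2bb overlaps Gm42743. Words and reads can therefore be shared at the same place as well as with copies elsewhere. A count of 0 over all libraries allows a level of up to 0.0103 CPM (3 counts over all libraries together, counting error only). How reads that fit several genes were counted is not given in the sources used here, so the values of members with low shares are uncertain.

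Many H2A and H2B genes share a promoter region and are copied in opposite directions from it. There were 13 pairs of members with starts within 1000 bases and facing away from each other. Of these, 12 were an H2A with an H2B gene, with starts 176 to 306 bases apart. The remaining pair, an H2B with an H3 gene, had starts 660 bases apart. The 2 pairs with the most counts were strongly one-sided. Hist2h2be (chromosome 3, 96221119 to 96223738, plus strand) had 14665 counts and its partner Hist2h2ac 11, or 20.1 against 0.0699 CPM per kb. Hist1h2bc (chromosome 13, 23684199 to 23692908, plus strand) had 9522 counts and its partner Hist1h2ac 122, or 29.3 against 0.166 CPM per kb. The stretches between the starts, from RefSeq (GRCm38.p6) and read in the direction of the H2B gene, are shown because both genes of a pair start from them. Capitals mark the CCAAT box (CCAAT), the TATA box (TATAAA) and the octamer (ATTTGCAT) on either strand.
Hist2h2ac to Hist2h2be (chr3:96220881-96221118): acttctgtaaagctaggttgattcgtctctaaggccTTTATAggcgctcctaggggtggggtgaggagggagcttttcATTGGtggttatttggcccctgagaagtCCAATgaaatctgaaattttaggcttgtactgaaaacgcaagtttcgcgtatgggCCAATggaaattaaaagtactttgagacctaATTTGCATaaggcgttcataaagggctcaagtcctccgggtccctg
Hist1h2ac to Hist1h2bc (chr13:23683949-23684198): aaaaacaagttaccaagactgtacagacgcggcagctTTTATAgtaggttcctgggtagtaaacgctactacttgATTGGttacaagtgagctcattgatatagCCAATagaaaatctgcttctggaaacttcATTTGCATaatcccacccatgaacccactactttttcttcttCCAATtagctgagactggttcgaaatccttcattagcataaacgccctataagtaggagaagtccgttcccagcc
Each stretch held 3 CCAAT boxes, 1 TATA box and 1 octamer. The 2 H2A partners differ in their models: that of Hist2h2ac stops 57 bases after the stem-loop, and that of Hist1h2ac runs 2010 bases past it.

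In the RefSeq promoter windows, from 250 bases before to 50 bases after the start, 62 of the 67 members had an entry. CCAAT, on either strand, stood in 53 of the 62 (85.5%) and in 37.4% of all 32851 windows. It was in all 6 H1, 18 H2A, 16 H2B and 10 H3 windows but in 3 of 12 H4 windows. TATAAA stood in 35 of the 62, against 13.6% of all windows. ATTTGCAT, the octamer known from H2B promoters, was in 7 of 18 H2A and 6 of 16 H2B windows, in none of the other classes, and in 1.74% of all windows. These are matches of letters and say nothing of binding.

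Library totals were 26061630 to 33407509 counts, except for the 18 month replicates 3 (5231724) and 4 (8892915), and 20331 genes passed the filter. Oocyte markers fell with age (11 of 12 at both 18 and 24 months against 2 months), as did 3 and 4 of 9 granulosa cell and 0 and 2 of 7 theca and luteal cell markers. Macrophage (5 and 6 of 6), B and T lymphocyte (5 and 8 of 10) and oviduct epithelium markers (2 and 6 of 6) rose. Of 6 plasma cell markers 2 rose and 1 fell at 18 months and 2 rose and 2 fell at 24 months, and none of 4 tested erythroid markers passed. Of all tested genes, 5.51% were called lower and 6.04% higher at 18 months against 2 months, and 15.8% and 19.2% at 24 months. The few calls among theca and luteal and plasma cell markers are not read as a change in those cells. RNAs that carry no poly(A) tail summed to 2.36 to 5.37 CPM over 14 genes in a sample. Rmrp, Rnu11 and Rn7s1 were at 0 counts, and the 2 that were tested had no call. The series holds no library made without the selection, so these values do not test it. In bulk tissue, fewer cells of a type and less RNA per cell cannot be told apart.

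Hist1h1c (chromosome 13, 23738808 to 23740367) encodes the linker histone H1.2. Its level was 85.1, 46.8, 83.7 and 63.3 CPM at 2 months, 115.5, 76.7 and 57.9 at 18 months, and 61.2, 51.3 and 48.4 at 24 months. The 3 groups overlapped, and the highest sample was 18 month replicate 1. The log2 fold change was 0.26 (SE 0.258, adjusted p = 0.537) at 18 months against 2 months and -0.38 (SE 0.261, adjusted p = 0.278) at 24 months against 2 months by edgeR. The other linker histone genes had fewer counts, with means over the ages of 1.83, 2.24 and 1.33 CPM for Hist1h1d. The 24 month samples of Hist1h1d were split, with 2.95 CPM in replicate 1 and 0.455 and 0.582 in the others. Hist1h1e overlaps Hist1h2be on the same strand, so the counts of both are uncertain.

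Among the H2B genes, Hist1h2bc was the only member that passed the test in any comparison. It had 50.2, 31.9, 67.8 and 28.7 CPM at 2 months, 53.9, 32.5 and 25.6 at 18 months, and 21.98, 12.6 and 13.2 at 24 months. Every 24 month sample lay below every sample of the other ages. Its model has 2 spliced exons and no match to the stem-loop. Hist2h2be, the other abundant H2B gene, was at 43.1, 79.1, 55.1 and 36.1 CPM at 2 months, 45.8, 44.2 and 64.9 at 18 months, and 103.5, 20.5 and 33.7 at 24 months. The highest and the lowest value of all 10 samples were both at 24 months. Hist1h2be was at 1.86 to 3.21, 1.79 to 4.78 and 1.99 to 4.14 CPM.

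Most H4 counts came from Hist1h4i (chromosome 13, 22040636 to 22041362). It was at 18.0, 17.6, 18.3 and 9.56 CPM at 2 months, 22.9, 8.61 and 9.81 at 18 months, and 17.6, 2.62 and 1.48 at 24 months. Replicate 1 of the 24 month group was at the level of the 2 month samples, and the other 2 were below every sample of the other ages. The same split was seen in the H3 gene Hist2h3c2 (chromosome 3, 96238108 to 96239127), with 3.17, 5.31, 4.59 and 1.92 CPM at 2 months, 4.18, 3.50 and 4.90 at 18 months, and 5.15, 0.797 and 0.494 at 24 months. Hist2h4 was at 0.639 to 2.36 CPM at 2 months, 0.788 to 3.79 at 18 months and 1.01, 0.341 and 0.116 at 24 months. Hist1h4h, the H4 gene whose model stops near the stem-loop, was at 1.13 to 3.74, 0.265 to 2.27 and 0.552 to 0.858 CPM, and its 2 and 24 month samples did not overlap. The next most abundant H3 genes were low, Hist1h3d at 0 to 0.975 CPM and Hist1h3e at 0.0285 to 0.319 over all samples.

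The H2A genes were nearly absent apart from Hist3h2a (chromosome 11, 58954685 to 58956830). It was at 3.03, 3.36, 3.90 and 4.29 CPM at 2 months, 3.44, 3.41 and 5.24 at 18 months, and 5.22, 3.78 and 5.84 at 24 months. It varied less than most others, with a log2 fold change of 0.44 (SE 0.248, adjusted p = 0.187) at 24 against 2 months by edgeR. It overlaps Trim17 on the same strand. Hist1h2ac lay between 0.0663 and 0.746 CPM and Hist1h2ae between 0.0609 and 0.199 CPM over all samples.

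**Figure D2:**
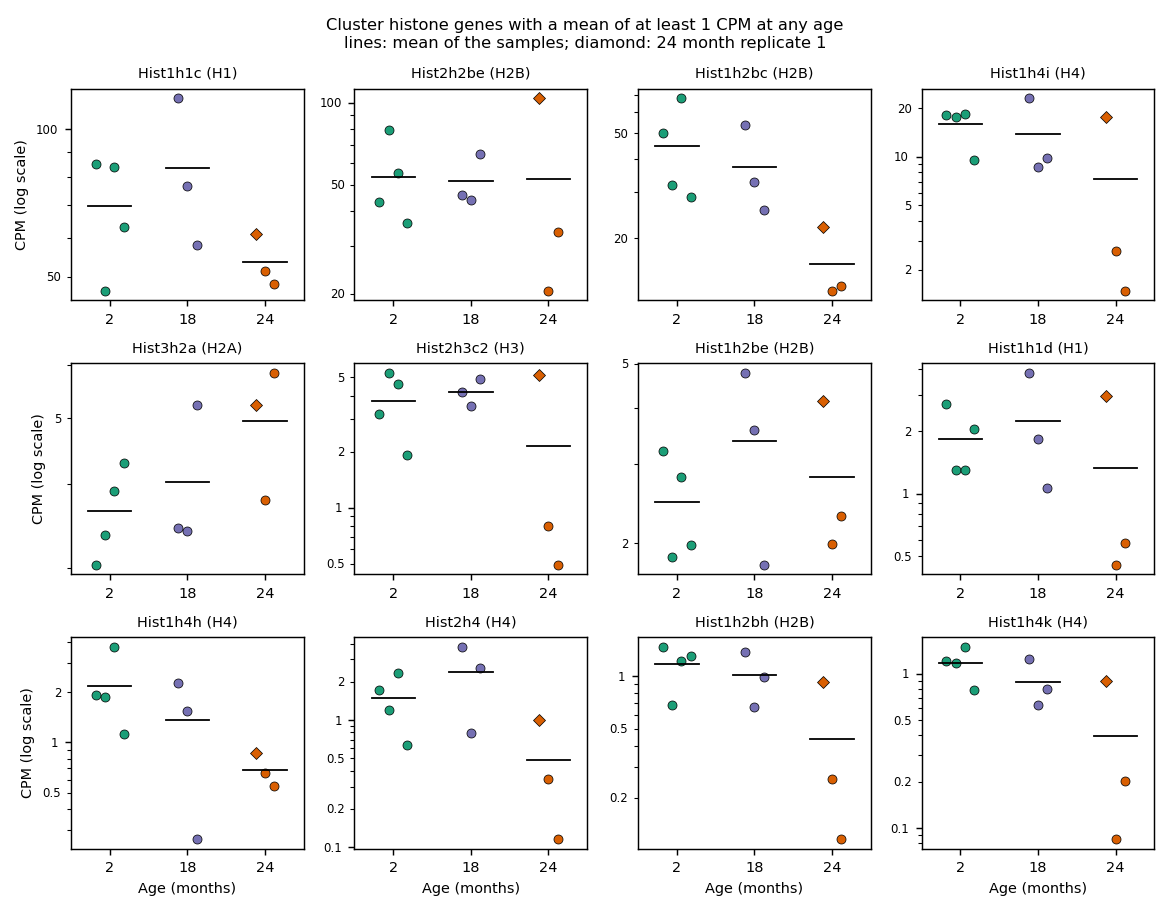
Level in CPM (log scale, own range per panel) of the 12 cluster histone genes with a mean of at least 1 CPM at any age, by age in months; each point is a sample (4, 3 and 3), lines are means and the diamond is 24 month replicate 1. The diamond is the highest 24 month sample in 11 of the 12 panels, all but that of Hist3h2a.

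At 18 months against 2 months, no cluster histone gene passed the test. By edgeR's quasi-likelihood test 0 of the 18 tested members passed an adjusted p of 0.05 (Benjamini-Hochberg over all tested genes), while 11.6% of all tested genes did, and 0 of 18 had an unadjusted p under 0.05, against 29.9%. DESeq2 called 0 of 17 members (20% of all genes) and limma-voom 0 of 18 (16.3%). The members' log2 fold changes ran from -0.63 (Hist1h4h) to 0.69 (Hist2h4), with 7 below 0 and a median of 0.15, where the median of all tested genes was 0.01. The samples of all 18 overlapped between the groups, while those of 27.3% of all tested genes did not. Counts were also simulated with the same design, where the changed genes all had a mean above 1 CPM and every gene had the same spread. There the test recovered 99 of 100 genes changed 4-fold and 19 of 100 changed 2-fold, so smaller changes could go unseen. Several tested members lay below 1 CPM, down to Hist1h2ba with a mean of 0.216 CPM over all samples. These shares do not apply to them, and larger changes could also go unseen there. The same holds for members above 1 CPM that vary widely between samples. At 18 against 2 months the SE was 0.737 for Hist1h4i, 0.701 for Hist2h4 and 0.699 for Hist2h3c2, against 0.258 for Hist1h1c.

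At 24 months against 2 months, Hist1h2bc fell. Its log2 fold change was -1.49 (SE 0.376, adjusted p = 0.0159 by edgeR). It was the only 1 of 18 members called, all directions counted, against 35% of all tested genes, of which 15.8% were lower and 19.2% higher. With library totals in place of TMM these shares were 9.19% lower and 24.8% higher, and the median of all genes moved from 0.03 to 0.22. The other members had values mostly below 0 without passing: 15 of 18 were negative, with a median of -0.75 against 0.03 for all tested genes, and 4 of 18 were lower at an unadjusted p under 0.05, where 21.7% of all genes were. The samples of 2 of the 18, Hist1h2bc and Hist1h4h, did not overlap between the ages, as for 42.1% of all tested genes. The 5 tested H4 genes were all below 0, from -1.65 to -0.89, with a median of -1.60. The 2 H3 genes had -0.81 (Hist2h3c2) and -2.40 (Hist1h3d), the 3 H1 genes -0.69 to -0.38 and the 2 H2A genes 0.04 and 0.44. DESeq2 called 3 of 17 members and limma-voom with sample weights 7 of 18, all lower (background 19.9% and 23.1% lower).

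The count of calls rested on single samples. Without 24 month replicate 1, 9 of 20 tested members were called lower and none higher, against 15.3% of all tested genes lower, and the members' median was -1.79. The 9 were the H4 genes Hist1h4k (-2.97), Hist1h4i (-2.93, adjusted p = 0.00417 by edgeR), Hist2h4 (-2.64), Hist1h4j (-2.43) and Hist1h4d (-1.84), the H2B genes Hist1h2bh (-2.61) and Hist1h2bc (-1.77), the H3 gene Hist2h3c2 (-2.51) and the H1 gene Hist1h1d (-1.80). Without 24 month replicate 2 or 3 none was called (background 8.82% and 8.69% lower), and the adjusted p of Hist1h2bc by edgeR was 0.0585 and 0.0525. Without 2 month replicate 4, or without the summed 18 month sample, 2 members were called lower (background 12.1% and 15.6%). With no count filter 2 of 60 members were called lower (background 7.08%), with only these ages in the fit 2 of 16 (15.2%), and with the replicate block 1 of 18 (11.9%). Replicate 1 of the 24 month group also differed from the other 2 in the sums of some marker lists, but not of all. The oocyte list summed to 46.1 CPM there and to 6.60 and 11.95 in the others (267 to 625 at 2 months, 34.1 to 73.2 at 18 months). The theca and luteal list summed to 22527 against 11996 and 5777 (25564 to 56024 at 2 months, 19394 to 30632 at 18 months), and the oviduct list to 31.9 against 142 and 942 (7.63 to 18.3 at 2 months, 45.8 to 139 at 18 months). The granulosa cell list summed to 3756 against 1463 and 2623 (3019 to 4040 at 2 months, 1691 to 3077 at 18 months), and the erythroid list to 97.8 against 20.3 and 30.2 (19.9 to 350.5 at 2 months, 65.6 to 417.5 at 18 months). Replicate 1 lay between the other 2 in the B and T lymphocyte list (62.2 against 56.4 and 93.4). It also did so in the plasma cell list (464 against 319 and 1495). The macrophage list summed to 436 against 413 and 406. The S phase genes described below summed to 559 against 425 and 422. No gene of these lists was at 0 counts in the series, and their part in the histone values was not tested.

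At 24 months against 18 months no member passed. edgeR called 0 of 18, where 0.00492% of all tested genes (1 gene) were called, DESeq2 0 of 15 (0.959%) and limma-voom 0 of 18 (0.00492%). At an unadjusted p under 0.05 there were 3, all lower, against 4.51% of all genes lower: Hist1h1c (-0.64), Hist1h2bc (-1.23) and Hist2h4 (-2.31). The median of the 18 was -0.93, with 16 below 0, where all tested genes had 0.03. The samples of Hist1h2bc and Hist1h3d did not overlap between these ages, as for 12.1% of all tested genes. With the replicate number as a block, no gene and no member was called, and the members' median was -0.98. In that fit 6 of 18 were lower at an unadjusted p under 0.05 (4.49% of all genes): Hist1h2bc (-1.23), Hist2h4 (-2.26), Hist1h2bh (-1.42), Hist1h3d (-2.47), Hist1h1c (-0.60) and Hist1h1d (-1.02). The unblocked count of 3 became 12 of 20 without 24 month replicate 1 (7.13% of all genes), with a median of -1.48, and 5 of 20 without the summed 18 month sample (6.34%). It was 1 without 18 month replicate 1 (2.33%) or 24 month replicate 2 (3.05%), 2 without 24 month replicate 3 (3.18%) or 2 month replicate 3 (5.22%), and 8 of 18 with limma-voom (7.1%). Both comparisons with 2 months use the same 2 month samples, so their values are not independent of each other.

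**Figure D3:**
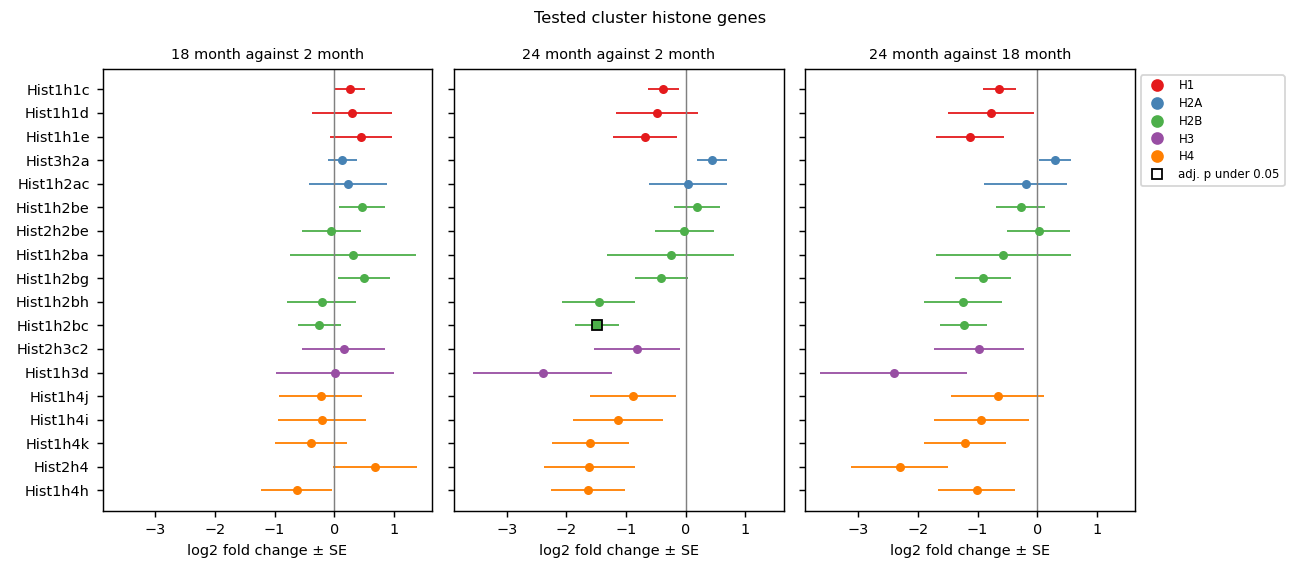
Log2 fold change with its SE (x axis) for the 18 tested cluster histone genes (y axis, grouped and coloured by class) in the 3 comparisons, with a square for an adjusted p under 0.05. Hist1h2bc at 24 against 2 months (-1.49) is the only square.

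Summed over all 67 members the level was 221, 198, 253 and 156 CPM at 2 months, 271, 183 and 180 at 18 months, and 230, 97.99 and 109 at 24 months. The means were 207 ± 40.7 (SD, n = 4), 211 ± 51.9 (SD, n = 3) and 146 ± 73.5 (SD, n = 3), and only 24 month replicates 2 and 3 lay below the other samples. Hist1h1c decided a large share of this: without it the means were 137.3, 127.8 and 92.3 CPM. The 49 members that did not pass the filter summed to 3.13 ± 0.341 (SD, n = 4), 2.40 ± 0.865 (SD, n = 3) and 1.59 ± 0.696 (SD, n = 3) CPM, too little to describe 1 by 1.

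Genes of DNA replication and of histone supply, from lists chosen with earlier results known, are set beside the members, with no test between lists. Of 24 genes of S phase and replication, 20 fell at 18 months against 2 months (median -1.28) and 22 at 24 months (median -1.25), and none rose. Over all tested genes the medians were 0.01 and 0.03, and 5.51% and 15.8% were called lower. Summed, the 24 genes stood at 1503, 1445, 809 and 1137 CPM at 2 months, 573, 477 and 506 at 18 months, and 559, 425 and 422 at 24 months, with no overlap between 2 months and the later ages. Mki67, a marker of cycling cells, fell with a log2 fold change of -1.81 at 18 months (adjusted p = 0.0143 by edgeR) and -2.23 at 24 months. Cdc45, part of the replicative helicase, had log2 fold changes of -1.77 and -1.94, the transcription factor gene E2f1 -1.63 and -2.08, and Tyms, which makes thymidylate, -1.19 and -1.11, all called. The cluster histone sum, with 97.99% of its counts from long models, overlapped between 2 and 18 months, where the replication sum did not. Members ending at the stem-loop summed to 1.80 to 4.43 CPM at 2 months, 0.795 to 3.37 at 18 and 0.814 to 1.53 at 24. Those without a 3′ end summed to 1.67 to 2.56, 1.33 to 2.27 and 0.349 to 1.49 CPM. Both sums overlapped between 2 and 18 months but not between 2 and 24 months. Hist1h4h held 427 of the 626 counts of the first, and Hist1h4k 237 of the 454 of the second.

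**Figure D4:**
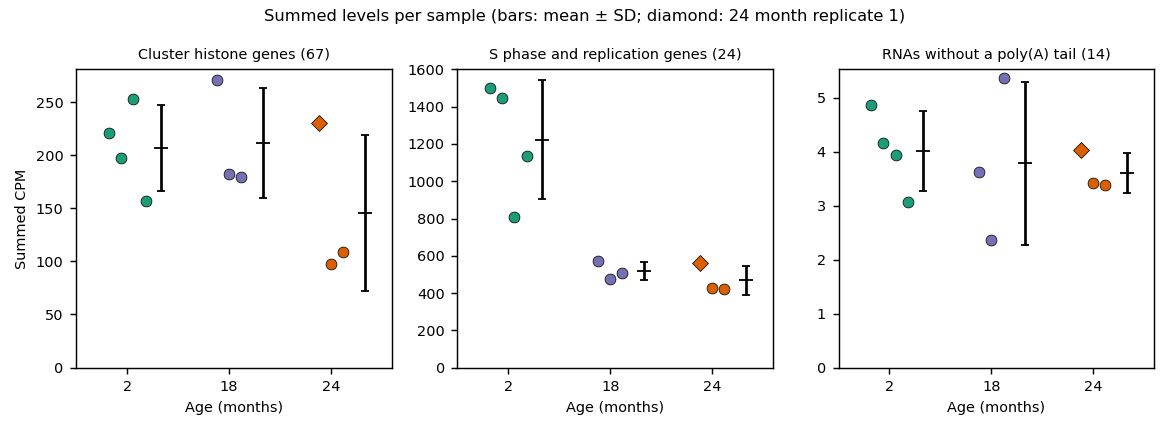
Summed level in CPM (y axis, from 0) per sample at 2, 18 and 24 months for the cluster histone genes, 24 S phase genes and 14 RNAs without a poly(A) tail, with mean ± SD beside the points and 24 month replicate 1 as a diamond. The histone sums of 2 and 18 months overlap, and those of the S phase genes do not.

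Genes that process or regulate histone mRNA fell in part. Of 19 genes of histone pre-mRNA processing and decay, 6 fell at 18 months (median -0.29) and 11 at 24 months (median -0.41) against 2 months, and none rose. Slbp, whose protein binds the stem-loop, was at 58.2, 55.8, 36.8 and 50.7 CPM at 2 months, 33.1, 28.7 and 28.6 at 18 months, and 33.2, 25.04 and 25.9 at 24 months. Every 2 month sample was above all later ones. The log2 fold change was -0.74 (SE 0.170, adjusted p = 0.0262 by edgeR) at 18 months and -0.85 at 24 months. Zfp473, a zinc finger protein of histone pre-mRNA processing, fell with -1.26 and -1.53, Cpsf3, the nuclease that cuts histone pre-mRNA, with -0.46 and -0.39, and Ncbp1, of the cap-binding complex, with -0.55 and -0.57. Lsm1, a decay factor, fell with -0.64 at 24 months and had -0.42 at 18 months without passing. Npat, the activator of cluster histone transcription, did not pass in either, with -0.19 and -0.24.

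Of 12 histone genes listed as replication-independent, 4 were lower at 18 months (median -0.32) and 9 at 24 months (median -0.52) against 2 months. None was higher. H1foo, the linker histone of the oocyte, fell with log2 fold changes of -2.96 (adjusted p = 0.0306 by edgeR) and -4.10. H2afx, whose protein is phosphorylated at DNA breaks, fell with -1.06 and -1.03, and H2afz, a variant found at promoters, with -0.84 and -0.94. Of 18 histone chaperones 5 fell at 18 months (median -0.49) and 10 at 24 months (median -0.45), and none rose. Npm2, the chaperone of the egg, fell with -2.81 and -3.79, Asf1b, which hands over H3 and H4, with -1.61 and -1.96, and Chaf1a, of the chromatin assembly factor, with -1.28 and -1.27. No gene of these 4 lists was called at 24 against 18 months. Oocyte markers summed to 267 to 625 CPM at 2 months and to 6.60 to 73.2 CPM later, and their part in the values of H1foo and Npm2 was not tested.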

How the data were processed

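RNA from ovaries was sequenced as 11 stranded mRNA libraries, per the labels' protocols. What the authors deposited is 1 table of raw counts, whole numbers per gene and library. FastQC, cutadapt, STAR and HTSeq and the build mm10 are named, without versions, per the submitters' processing notes. No source used here gives the annotation, the strand setting or the handling of reads that fit several genes, which can change the counts of near-identical histone genes.

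The 18 month replicates 3 and 4 differed by little more than sampling noise (chi-square per gene 1.10, next pair 28.7) and were summed. Counts were tested with edgeR 4.0.16 (R 4.3.3) by the quasi-likelihood F-test, robust, with TMM scaling and filterByExpr. All 3 ages shared 1 model (biological coefficient of variation 0.32). Adjusted p-values are Benjamini-Hochberg over 20331 genes, with a threshold of 0.05. The scripts were tested on simulated data. Alternatives were DESeq2 1.42.0, limma-voom (limma 3.58.1) with sample weights, other scalings and filters, only the ages compared, replicates 3 and 4 kept apart, a replicate block and each sample left out.

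Replicate numbers come from the sample titles, which do not say what they share. Same-numbered samples of 18 and 24 months deviated together (r = 0.398, 0.283 and 0.148). The differently numbered 18 month replicate 2 and 24 month replicate 3 had r = 0.144. The main fit of that comparison was unblocked. Values from an alternative fit, with the replicate number as a block over all ages, are given beside it. Same-numbered samples of 2 months and the later ages did not deviate together (r from -0.109 to 0.0742).

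Model ends, stem-loops and poly(A) signals were read from GENCODE M21 transcripts and promoters from RefSeq. The members and the gene lists (pathway genes, RNAs without a poly(A) tail, cell type markers) were chosen with earlier results of these data known. Genes named are members that passed a test, the 3 members with the highest mean CPM per class, the 2 genes with the smallest p per list in each comparison with 2 months, and a few fixed genes. Hist1h4k, Hist1h4j, Hist1h4d, Hist1h2bh, members shown for their sequence and those with 0 counts were named after their values were seen.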

Additional observations from a re-analysis of the deposited data

Results flagged for a closer look

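In the 2 month group, replicate 4 of Hist1h4i (9.56 CPM) lay far from the other 3 samples (17.6 to 18.3 CPM), with a gap larger than the limit for 4 samples. In a single group chance passes that limit about 1 time in 20. This was the only one of 16 groups looked at, and at that rate finding 1 past the limit is not unusual. The groups share samples and are not independent, so the rate is only a guide.

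A histone-named pseudogene row, which is not a member, had most of its counts at 18 months. Hist1h2al (chromosome 13, 51202727 to 51203065, outside cluster 1) had 152, 67 and 12 counts in the 18 month samples, a mean of 2.76 CPM (5.39, 2.11 and 0.795). It had 0, 0, 1 and 0 counts at 2 months and 0, 19 and 0 at 24 months. It was higher at 18 than at 2 months (adjusted p = 0.0182 by edgeR), and no fold is given because the 2 month group holds 1 count. At 24 against 18 months it was -3.86 without passing (adjusted p = 0.443 by edgeR).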

How the results depend on the processing

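At 18 against 2 and at 24 against 18 months, no alternative called a member. At 24 against 2 months, 1 of 18 members was called, against 35% of all tested genes in any direction. With no count filter 2 of 60 were called (15.6% of all genes), with DESeq2 3 of 17 (41.1%) and with limma-voom 7 of 18 (48.2%). With only those ages in the fit 2 of 16 were called (33.7%), and with the replicate block 1 of 18 (25.2%). With each sample left out in turn 0 to 9 were called, the 9 of 20 being without 24 month replicate 1 (35.4%). All tested genes called were 2349 at 18 against 2 months, against 4000 with replicates 3 and 4 kept apart, 4052 with DESeq2, 1034 with the replicate block and 375 to 2748 with a sample left out. At 24 against 2 months they were 7120, and 4283 to 7467 with a sample left out. At 24 against 18 months they were 1, against 187 with DESeq2, 0 with library totals, 0 with only those ages, 0 with the replicate block, and 0 to 2 with a sample left out. The replicate block changed no call of a member.

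Log2 fold changes of 10 members that were not called changed sign. With limma-voom they were -0.27 (Hist1h2ac) and 0.025 (Hist2h2be) at 18 against 2 months, -0.63 (Hist1h2ac) and -0.030 (Hist1h2be) at 24 against 2 months, and -0.92 (Hist2h2be) at 24 against 18 months. With replicates 3 and 4 kept apart they were -0.0041 (Hist1h3d) and 0.033 (Hist2h2be) at 18 against 2 months and -0.058 (Hist2h2be) at 24 against 18 months. With the replicate block they were -0.31 (Hist1h3d) and -0.13 (Hist2h3c2) at 18 against 2 months and -0.14 (Hist2h2be) at 24 against 18 months. With library totals Hist2h2be had 0.043 and 0.13 against 2 months, with a stricter count filter 0.0068 at 24 months, and with no filter Hist1h3d had -0.00024 at 18 months. With each sample left out, the ranges at 18 against 2 months were -0.030 to 0.46 for Hist1h1c, -0.31 to 0.62 for Hist1h1d, -0.22 to 0.65 for Hist1h2ac, -0.60 to 0.0022 for Hist1h2bc, -0.43 to 0.64 for Hist1h3d, -0.77 to 0.051 for Hist1h4i, -0.25 to 0.22 for Hist2h2be, -0.053 to 0.39 for Hist2h3c2 and -0.091 to 0.26 for Hist3h2a. At 24 against 2 months they were -0.67 to 0.38 for Hist1h2ac, -0.18 to 0.39 for Hist1h2be and -0.97 to 0.36 for Hist2h2be. At 24 against 18 months they were -0.90 to 0.26 for Hist1h2ac, -0.65 to 0.050 for Hist1h2be and -0.92 to 0.41 for Hist2h2be. The cause was not tested.

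Detection moved from 18 members to 60 with at least 1 count in any library. The summed level without Hist1h1c was 137.3 CPM at 2 months and 127.8 CPM at 18 months. Hist1h2bc at 24 against 2 months stayed between -1.77 and -1.24, with an adjusted p by edgeR, DESeq2 or limma-voom of 0.000437 to 0.0585. The 18 month replicates 3 and 4 are shallow, and 49 members are counted too thinly for a test. In simulated counts the changed genes all had a mean above 1 CPM. Of those changed 2-fold, 20 of 100 were recovered at 24 against 2 months and 13 of 100 at 24 against 18 months.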
